A study of Mus musculus with 6 samples.

Results

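The genes described here are 10 genes of the myogenic programme and of myoblast fusion in mouse hind leg muscle. They are the myogenic regulatory factors Myod1, Myf5, Myog and Myf6, the satellite cell factor Pax7, the fusion gene Mymk, the surface genes Cdh15, Ncam1 and Megf10, and the filament gene Des. The genes were chosen by name, with earlier results of these data known, and all 10 were found among the 16759 genes of the deposited table. RNA of this muscle had been sequenced in 3 untrained (Con) and 3 exercised (EX) mice, with 1 library per mouse, to ask how treadmill training changes muscle RNA. All mice were male C57BL/6J mice, 8 weeks old when the experiment started. The EX mice ran on a treadmill in daily sessions of 60 min, 5 days per week, for 6 weeks and over a total of 22 km, and tissue was taken 24 h after the final run, while the Con mice did no treadmill training. The samples were pieces of whole muscle from PBS-perfused mice, from which the intermuscular fat had been removed, so they also hold vessels, nerve, connective tissue and immune cells.

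Skeletal muscle fibres are formed by the fusion of myoblasts, and in adult muscle the myoblasts come from satellite cells, which lie along the fibres and carry Pax7. Myf5 and Myod1, basic helix-loop-helix (bHLH) transcription factors, commit cells to the muscle lineage. Myog, a factor of the same family, turns on terminal differentiation, and Myf6 (MRF4) is the family member most abundant in mature fibres. Together with E proteins, these factors bind E-boxes, short DNA motifs with the letters CANNTG. Mymk encodes myomaker, a membrane protein needed for myoblasts to fuse, and it acts with the small protein myomixer, encoded by Mymx. Cdh15 (M-cadherin), Ncam1 (neural cell adhesion molecule) and Megf10 are surface proteins of myogenic cells, and Des encodes desmin, the intermediate filament protein that ties the Z-discs of a fibre together.

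Promoter sequence is shown for genes in which E-boxes are textbook elements, with the E-boxes in capitals, and it was read for other genes as well. Each sequence runs 5′ to 3′ on the strand of the gene, from 250 bases before to 50 bases after the RefSeq start, in the GRCm38.p6 assembly. RefSeq promoters of this kind were at hand for 5 of the 10 genes, and Myog and Des are shown here. Chrng and Chrna1, which encode subunits of the acetylcholine receptor and are known targets of the myogenic factors, are shown beside them. Myog lies at chr1:134289754-134290053 on the plus strand, Des at chr1:75360042-75360341 on the plus strand, Chrng at chr1:87205561-87205860 on the plus strand and Chrna1 at chr2:73580289-73580588 on the minus strand.
Myog: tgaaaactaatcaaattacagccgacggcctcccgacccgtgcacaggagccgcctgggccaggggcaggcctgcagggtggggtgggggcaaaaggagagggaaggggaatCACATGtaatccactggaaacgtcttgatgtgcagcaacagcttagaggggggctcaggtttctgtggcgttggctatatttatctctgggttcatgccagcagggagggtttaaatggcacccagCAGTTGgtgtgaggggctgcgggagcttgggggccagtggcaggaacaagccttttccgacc
Des: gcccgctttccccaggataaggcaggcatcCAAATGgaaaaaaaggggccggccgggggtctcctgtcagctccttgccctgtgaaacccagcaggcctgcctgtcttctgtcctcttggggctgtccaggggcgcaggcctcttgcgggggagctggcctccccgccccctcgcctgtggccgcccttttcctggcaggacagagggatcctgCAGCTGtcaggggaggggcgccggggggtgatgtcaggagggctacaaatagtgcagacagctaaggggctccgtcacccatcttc
Chrng: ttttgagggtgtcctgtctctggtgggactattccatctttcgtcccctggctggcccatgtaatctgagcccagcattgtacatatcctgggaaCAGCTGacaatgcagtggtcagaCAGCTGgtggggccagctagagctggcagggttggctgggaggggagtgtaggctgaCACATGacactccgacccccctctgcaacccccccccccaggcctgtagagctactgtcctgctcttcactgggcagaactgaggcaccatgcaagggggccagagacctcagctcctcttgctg
Chrna1: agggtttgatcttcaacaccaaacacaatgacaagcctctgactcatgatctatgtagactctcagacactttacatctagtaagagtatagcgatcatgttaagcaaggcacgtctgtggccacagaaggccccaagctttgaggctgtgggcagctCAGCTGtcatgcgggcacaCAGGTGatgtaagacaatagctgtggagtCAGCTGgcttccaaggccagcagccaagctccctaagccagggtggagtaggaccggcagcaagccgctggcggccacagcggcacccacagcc
The Myog promoter held 2 E-boxes, CACATG starting 138 bases before the gene start and CAGTTG starting 12 bases before it. It also held TCAGGTT, the MEF3 motif, in lower case 84 bases before the start. The Des promoter held CAAATG and CAGCTG. The Chrng and Chrna1 promoters held 3 E-boxes each, and both had 2 copies of CAGCTG. Both strands were searched. An E-box of any kind was found in 72.3% of 32851 RefSeq promoters of this length, CAGCTG in 16.3%, CAGTTG in 13.7% and TCAGGTT in 4.07%. Each more exact E-box is also counted as a match of the general form, and a match describes the letters only. The promoters of Myf5 and Pax7 held no E-box in this window, and that of Cdh15 held 4. An exact match of the MEF2 consensus, present in 3.19% of all promoters, was not found in any of the 5 promoters of these genes. Near matches were not counted, such as the stretch ctatatttat in the Myog sequence above.

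The deposited counts summed to between 13845362 and 15585048 per Con library and between 16080487 and 16240431 per EX library. Levels are given as CPM, which are counts divided by the TMM-scaled library size, a correction for differences in library composition. The groups were compared with edgeR's quasi-likelihood test over 16716 genes that had a count, with Benjamini-Hochberg adjustment over all of them and a threshold of 0.05. The biological coefficient of variation common to all genes, the relative spread between mice of a group, was 0.0329. Where a library had no read of a gene, up to 3 counts remain possible, or 0.188 to 0.214 CPM, by counting error alone. The tissue label was checked against fibre genes, and Acta1, skeletal actin, stood at 34924 ± 617 CPM in Con and 40787 ± 1106 CPM in EX muscle (SD, n = 3).

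Of the 10 genes, 4 were higher in EX muscle, none was lower and 6 did not pass the threshold. The 4 were Myog, Myod1, Myf6 and Mymk. At an unadjusted p under 0.05, Ncam1 was higher as well and none of the 10 was lower in edgeR's test. Among all genes tested, 6.08% were higher and 5.96% were lower, which makes 12.0% in either direction. The groups did not overlap for the same 4 of the 10 genes, compared with 26.7% of all genes tested. The median log2 fold change of the 10 genes was 0.10, and that of all genes was -0.00353.

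**Figure D1:**
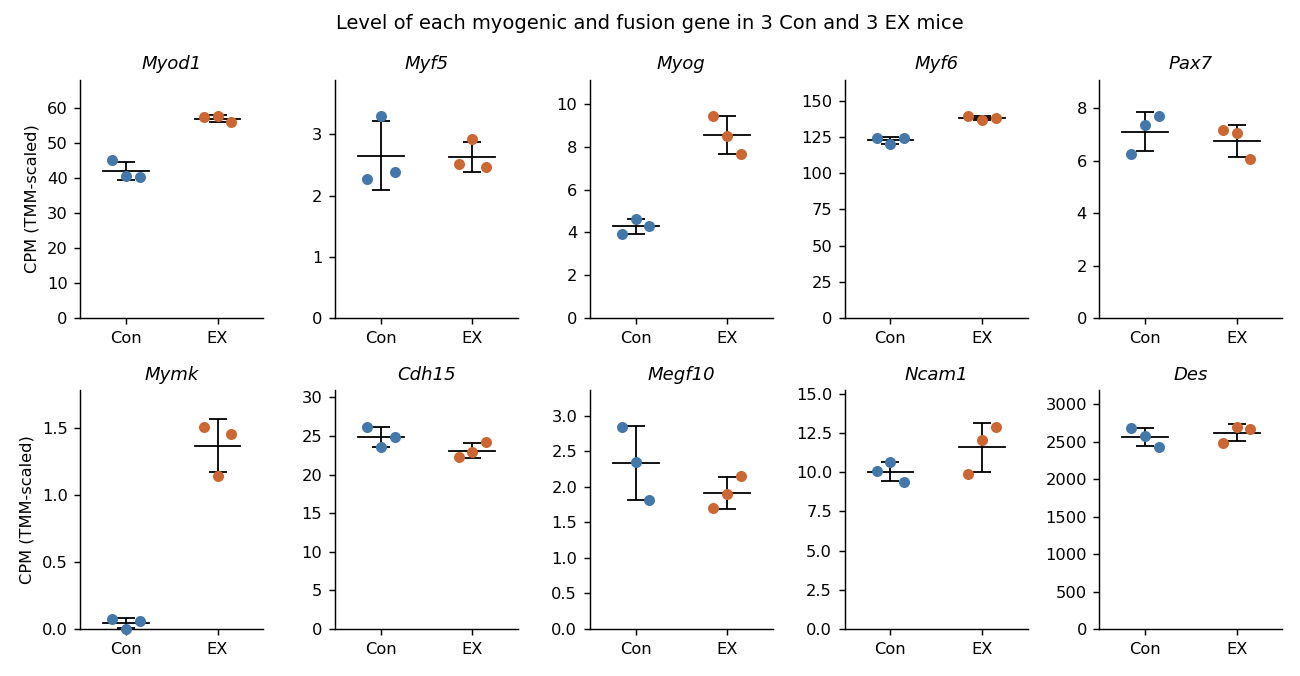
Levels of the 10 genes in CPM after TMM scaling (y axis, starting at 0) in each of the 3 Con (blue) and 3 EX (orange) libraries. Horizontal lines are means and bars are SD. The EX points lie above the Con points for Myod1, Myog, Myf6 and Mymk, and the groups overlap for the other 6 genes.

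Myod1, which commits cells to the muscle lineage, was measured at 45.1, 40.6 and 40.5 CPM in Con replicates 1 to 3 and at 57.4, 57.8 and 56.0 CPM in EX replicates 1 to 3. All EX libraries lay above all Con libraries, and the EX libraries were close to each other. The mean rose from 42.1 ± 2.65 to 57.1 ± 0.959 CPM (SD, n = 3), an increase of 35.9%. The log2 fold change was 0.44 (SE 0.0542, 95% interval 0.33 to 0.55), with an adjusted p of 2.4e-08 in edgeR's quasi-likelihood test. Because whole tissue was sequenced, more cells with a transcript cannot be told apart from more of it in each cell, and this holds for each gene described here.

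Myf5, the other factor of commitment, was detected at low counts of 32, 52 and 38 reads in Con and 40, 46 and 39 reads in EX libraries. These are 2.28, 3.30 and 2.38 CPM in Con and 2.51, 2.92 and 2.47 CPM in EX muscle. The EX values lay inside the Con range. The log2 fold change was -0.02 (SE 0.189, adjusted p = 0.98), and its 95% interval from -0.40 to 0.36 leaves room for a change of either sign. The sign turned when Con replicate 2 was left out, with a log2 fold change of 0.17, and also without EX replicate 1 (0.02) or EX replicate 3 (0.03).

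Myog, the factor of terminal differentiation, was at 3.92, 4.63 and 4.32 CPM in Con and at 9.42, 8.50 and 7.65 CPM in EX replicates. The underlying counts were 55, 73 and 69 reads in Con and 150, 134 and 121 reads in EX libraries. The lowest EX library was above the highest Con library by more than the range of the Con group. The mean rose from 4.29 ± 0.357 to 8.53 ± 0.886 CPM (SD, n = 3), which is 98.2% higher. The log2 fold change was 0.99 (SE 0.129, 95% interval 0.73 to 1.25, adjusted p = 1.1e-07 in edgeR's test).

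Myf6, the factor of mature fibres and the most abundant of the 4, was at 124.0, 120.0 and 124.3 CPM in Con replicates. In EX replicates it was at 139.3, 136.5 and 138.3 CPM. The groups did not overlap, but the step was small. The mean rose from 122.7 ± 2.40 to 138.0 ± 1.44 CPM (SD, n = 3), an increase of 12.5%, with a log2 fold change of 0.17 (SE 0.0418, 95% interval 0.08 to 0.25, adjusted p = 0.0035 in edgeR's test). This call was lost in the limma fits, where both the values and the test differ. The log2 fold change was 0.109 on log2(FPKM + 0.1), 0.109 on log2(FPKM + 1) and 0.074 on TPM, with adjusted p of 0.0941, 0.0878 and 0.216.

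Per length of transcript, the 4 myogenic factors stood far apart from each other. On the FPKM scale, which divides fragments by transcript length and library size, the Con means were 134.8 ± 3.32 for Myf6, 28.1 ± 1.58 for Myod1, 3.79 ± 0.331 for Myog and 1.44 ± 0.252 for Myf5 (SD, n = 3). In EX muscle they were 145.4 ± 2.90, 36.6 ± 0.655, 7.23 ± 0.799 and 1.40 ± 0.0666. The order was Myf6, Myod1, Myog and Myf5 in both groups, and neighbours in it did not overlap. Summed over the 4 factors, FPKM were 164.3 to 170.4 in Con and 187.8 to 194.9 in EX libraries. Of this sum, Myf6 made up 80.2% ± 0.736 in Con and 76.3% ± 0.534 in EX, and Myod1 16.7% ± 0.847 and 19.2% ± 0.306 (SD, n = 3). The share of Myog was 2.26% ± 0.230 in Con and 3.79% ± 0.356 in EX muscle, and that of Myf5 was 0.859% ± 0.168 and 0.733% ± 0.0428.

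Whether 1 factor changed more than another was tested by the ratio of their FPKM within each library, which does not depend on how libraries are scaled. With 3 mice against 3, an exact two-sided permutation test cannot go below 0.1, so no ratio could pass the threshold. The ratio of Myog to Myod1 was -2.89 ± 0.206 on the log2 scale in Con and -2.34 ± 0.134 in EX muscle (SD, n = 3), a difference of 0.55 without overlap (exact permutation p = 0.1, 0.17 adjusted over 10 pairs). The ratio of Myog to Myf6 differed by 0.82, that of Myog to Myf5 by 0.96, that of Myog to Pax7 by 1.08, that of Myod1 to Myf6 by 0.27 and that of Myod1 to Pax7 by 0.53, all without overlap and with the same p. The other 4 ratios overlapped between the groups. The ratio of Myf5 to Pax7 differed by 0.12 (exact permutation p = 0.5, 0.63 adjusted) and that of Cdh15 to Pax7 by -0.01 (p = 0.9, 0.9 adjusted). The ratio of Ncam1 to Cdh15 differed by 0.33 (exact permutation p = 0.2, 0.29 adjusted) and that of Megf10 to Pax7 by -0.18 (p = 0.7, 0.78 adjusted). With 1 library left out, the sign of 3 of these turned, since Megf10 to Pax7 ran from -0.39 without Con replicate 3 to 0.05 without Con replicate 1, Myf5 to Pax7 from -0.0098 without Con replicate 3 to 0.23 without Con replicate 2, and Cdh15 to Pax7 from -0.14 without EX replicate 3 to 0.10 without Con replicate 1.

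**Figure D2:**
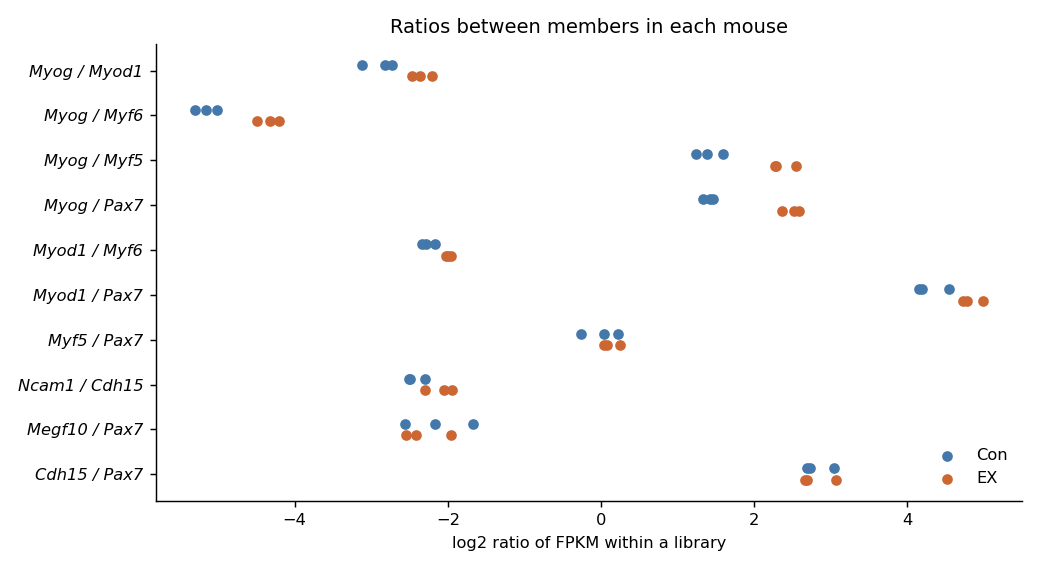
Ratios of the FPKM of pairs of genes within each library (log2 scale) in Con (blue) and EX (orange) mice. The EX ratios of Myog to Myod1, Myf6, Myf5 and Pax7 and of Myod1 to Myf6 and Pax7 lie above the Con ratios, and the other 4 pairs overlap.

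Pax7, the transcription factor that marks satellite cells, was at 6.26, 7.35 and 7.70 CPM in Con and 7.16, 7.04 and 6.07 CPM in EX replicates. The groups overlapped, and the lowest values of both groups were close to each other. The means were 7.11 ± 0.750 and 6.76 ± 0.598 CPM (SD, n = 3). In log2 terms the difference was -0.08 (SE 0.122, 95% interval -0.32 to 0.17, adjusted p = 0.75 in edgeR's test).

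Mymk, the myomaker gene, was close to absent in Con muscle, with 1, 0 and 1 reads, and had 24, 18 and 23 reads in the EX libraries. In CPM these are 0.0712, 0 and 0.0626 in Con and 1.51, 1.14 and 1.45 in EX. All Con libraries were under the floor of 3 counts, and all EX libraries were above it. The pooled counts were 2 in Con and 65 in EX libraries, a ratio of 31.3 after scaling, with a 95% exact interval of 8.33 to 264 that covers counting error only. The adjusted p was 2.4e-08 in edgeR's test, whose fitted log2 fold change of 4.73 (SE 0.580) depends on the prior count at such low numbers. Mymx, the partner of Mymk in fusion, had 1, 0 and 0 reads in Con and 2, 4 and 3 reads in EX libraries. The pooled Mymx counts of 1 and 9 gave a ratio of 8.68 (95% exact interval 1.20 to 380), and the adjusted p of 0.14 did not pass in edgeR's test. Limma on log2(FPKM + 0.1) and on TPM did call Mymx, with adjusted p of 0.0477 and 0.0450.

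**Figure D3:**
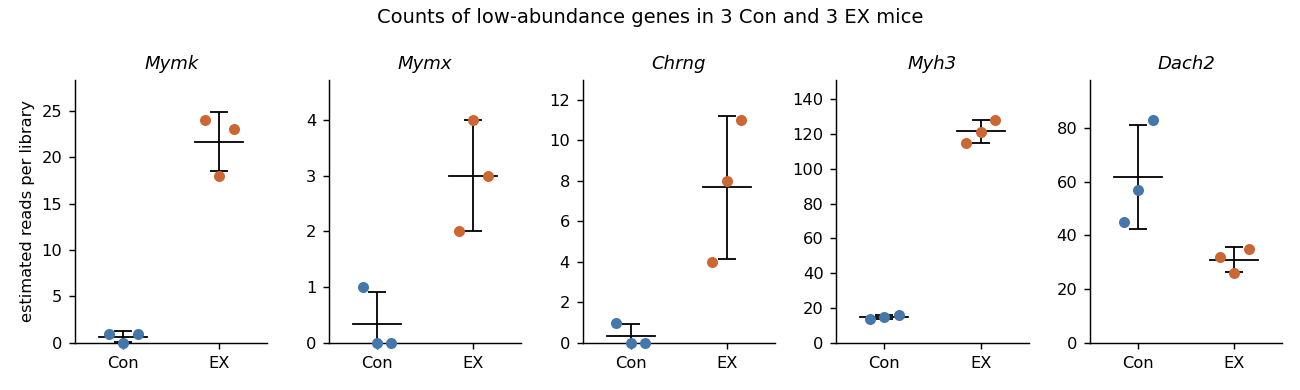
Deposited counts of Mymk, Mymx, Chrng, Myh3 and Dach2 in each library of the Con (blue) and EX (orange) groups, with means (lines) and SD (bars). Mymk had 0 or 1 read per Con library and 18 to 24 per EX library, and Dach2 was lower in each EX library than in each Con library.

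Cdh15, the cadherin of satellite cells and myoblasts, was at 26.2, 23.5 and 24.9 CPM in Con and 22.2, 22.9 and 24.2 CPM in EX replicates. The groups overlapped, with a log2 fold change of -0.10 (SE 0.0692, 95% interval -0.24 to 0.04, adjusted p = 0.41 in edgeR's test). Megf10, a receptor of satellite cells, had only 29 to 40 reads in Con and 27 to 34 reads in EX libraries. Its log2 fold change was -0.27 (SE 0.211, 95% interval -0.70 to 0.15, adjusted p = 0.48), and the groups overlapped.

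Ncam1, an adhesion molecule of myogenic cells and of nerve contacts, was at 10.1, 10.6 and 9.39 CPM in Con and 9.86, 12.1 and 12.9 CPM in EX replicates. EX replicates 2 and 3 lay above the Con libraries and EX replicate 1 lay among them. The difference was 0.21 in log2 terms (SE 0.103, 95% interval 0.00092 to 0.41), with an unadjusted p of 0.049 and an adjusted p of 0.21 in edgeR's test. Schwann cells also express Ncam1, and of 10 Schwann cell markers 6 were lower and none was higher in EX muscle. Their summed level was 119.7 to 132.5 CPM in Con and 91.6 to 94.7 CPM in EX libraries, no marker was at 0 in all libraries, and their part in the Ncam1 value was not tested.

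Des, desmin, was the most abundant of the 10 genes at 2685, 2577 and 2436 CPM in Con and 2490, 2702 and 2678 CPM in EX replicates. The groups overlapped over most of their range. The log2 fold change was 0.03 (SE 0.0348, 95% interval -0.04 to 0.10, adjusted p = 0.62 in edgeR's test). This interval overlaps that of Myf6, 0.08 to 0.25, and the changes of these genes were not compared by a test. The sign for Des turned without Con replicate 3, at -0.0044.

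Over all 10 genes, the order per length in Con muscle was Des, Myf6, Myod1, Cdh15, Myog, Ncam1, Myf5, Pax7, Megf10 and Mymk. FPKM ran from 954.9 ± 39.9 for Des to 0.0433 ± 0.0379 for Mymk (SD, n = 3), and only Myf5 and Pax7 overlapped as neighbours. In EX muscle, Mymk at 1.29 ± 0.197 FPKM moved up between Myf5 at 1.40 ± 0.0666 and Pax7 at 1.29 ± 0.140, and these neighbours did not differ beyond their spread. The mean FPKM of Cdh15 was 2.66 times that of Myog in Con muscle and 1.24 times that of Myog in EX muscle. The transcript length implied by count and FPKM, a check of the mix of transcripts, was computed for the 9 genes other than Mymk. It differed between the groups by -1.75% for Ncam1 to 1.65% for Pax7, the groups overlapped for all 9, and the exact permutation p ranged from 0.5 to 0.9.

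**Figure D4:**
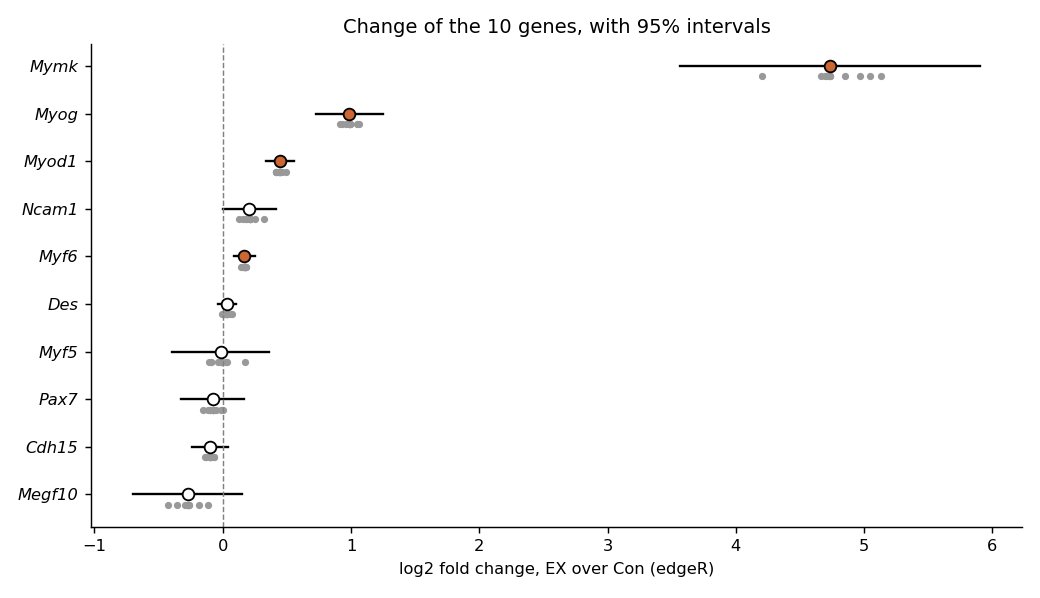
Log2 fold change of EX against Con for the 10 genes with 95% intervals from edgeR's test. Filled circles passed the threshold, open circles did not, and grey dots are count-based alternatives, with the fits on FPKM and TPM left out. Myog lies at 0.99, Myod1 at 0.44 and Myf6 at 0.17.

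Other genes of the pathway were described in 8 lists, of whose 136 genes 135 were in the table. Of these, 19 were higher in EX muscle, 18 were lower and 98 did not pass, with a median log2 fold change of 0.01. For comparison, 6.08% of all genes tested were higher and 5.96% were lower.

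The list of genes of new and regenerating fibres had 6 of 8 genes higher and none lower, with a median log2 fold change of 0.91. Like the other lists, it was chosen with earlier results of these data known, so this count is a description and not a test. Myh3, embryonic myosin heavy chain, had 14, 15 and 16 reads in Con and 115, 121 and 128 reads in EX libraries (log2 fold change 2.95, adjusted p = 1.5e-17 in edgeR's test). Actc1, the actin of heart and developing muscle, rose from 508.5 ± 30.0 to 1597 ± 50.0 CPM (SD, n = 3), and the change was 1.65 on the log2 scale (adjusted p = 2.3e-34). Myh8, perinatal myosin, changed by 2.10 in log2 terms (adjusted p = 9.5e-14). Its deposited counts are partly not whole, and how reads were shared with other myosin genes is uncertain. Over the alternatives, the log2 fold change ran from 0.98 to 3.00 for Myh3 and from 0.78 to 2.18 for Myh8, and both kept their call. Myl4, an embryonic light chain, rose by 0.86, Tnnt2, cardiac troponin T, by 0.96, and Cdkn1c, an inhibitor of the cell cycle, by 0.27. Tnnt2 did not pass without EX replicate 2 (0.76, adjusted p = 0.0874), with DESeq2 (adjusted p = 0.0591) or in the limma fits (0.0571 to 0.0769), and Cdkn1c did not with limma on log2(FPKM + 1) (0.0505) or TPM (0.0771). Cdkn1a, another inhibitor of the cell cycle, had a log2 fold change of 0.27 and Nes, the filament protein nestin, one of -0.02, and neither passed.

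The 14 bHLH partners and inhibitors had 1 gene higher and 2 lower, compared with 6.08% and 5.96% of all genes tested. Bhlhe40, a repressor of the bHLH family, fell from 258.5 ± 6.79 to 201.6 ± 2.50 CPM (log2 fold change -0.36, adjusted p = 9.7e-10 in edgeR's test). Id proteins hold E proteins away from the myogenic factors, and the members of this family differed in sign. Id3 fell by 0.29 on the log2 scale (adjusted p = 0.001), and Id1 rose by 0.20 (adjusted p = 0.04). The Id1 call was lost when any 1 library was left out, with adjusted p from 0.052 to 0.228. Of the 18 upstream factors and cofactors, 1 was higher and 1 was lower, near the shares of all genes tested. Eya4, a transcriptional coactivator, rose by 0.20 (adjusted p = 0.0034) and did not pass in the limma fits (adjusted p from 0.0969 to 0.15). Ep300, a histone acetyltransferase, fell by 0.19 (adjusted p = 0.0083), but did not pass without Con replicate 1 (-0.17, adjusted p = 0.0525), EX replicate 1 (-0.19, 0.0728) or EX replicate 3 (-0.15, 0.142).

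In the list of the satellite cell niche and Notch signalling, 7 of 22 genes were lower and 2 were higher, with a median log2 fold change of -0.11. The count of lower genes was 2 without EX replicate 1, 3 without Con replicate 2, 3 without EX replicate 3, 4 without EX replicate 2 and 3 with DESeq2. Notch1, a receptor that holds satellite cells in the undifferentiated state, fell from 44.6 ± 0.441 to 36.5 ± 1.39 CPM (SD, n = 3), by 0.29 on the log2 scale (adjusted p = 0.00015 in edgeR's test). Sdc3, a syndecan of satellite cells, fell by 0.30 (adjusted p = 0.00011), while Sdc4, a syndecan of the same cells, rose by 0.37 (adjusted p = 3.4e-05). Cxcr4, a chemokine receptor, fell by 0.54 (adjusted p = 0.0088), and did not pass without Con replicate 1 (-0.42, adjusted p = 0.104) or EX replicate 1 (-0.43, 0.142). Dll1, a Notch ligand, rose by 0.37 (adjusted p = 0.0075) and did not pass without Con replicate 1, Con replicate 2, EX replicate 2 or EX replicate 3, with adjusted p from 0.0658 to 0.136. Several genes of this list are also expressed by vessels. Of 10 endothelial markers, 5 were lower and 1 was higher (summed 842.9 to 870.0 CPM in Con and 750.8 to 771.4 in EX), and of 10 smooth muscle and pericyte markers, of which Notch3 is in both lists, 7 were lower and 1 was higher (1035 to 1067 and 848.0 to 873.9 CPM). No marker of either list was at 0 in all libraries, and their part in the values of this list was not tested.

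Of the fusion machinery, 27 of 28 genes were in the table, with 2 higher, 2 lower and 23 not past the threshold. These counts are near the shares of all genes tested, of which 6.08% were higher and 5.96% lower. Palld, the actin-binding protein palladin, rose from 103.6 ± 0.526 to 129.8 ± 4.34 CPM (log2 fold change 0.33, adjusted p = 1.6e-07 in edgeR's test). Cav3, muscle caveolin, rose by 0.17 (adjusted p = 0.037), a call that was lost when any 1 library was left out, with adjusted p from 0.0535 to 0.164. Kirrel, a cell adhesion molecule of the nephrin family, fell by 0.37 (adjusted p = 0.0018), and Ehd2, a membrane protein, by 0.19 (adjusted p = 0.001). Without EX replicate 1, the values were -0.32 (adjusted p = 0.0518) for Kirrel and -0.17 (adjusted p = 0.0536) for Ehd2.

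Among 15 genes linked to innervation, 4 were higher and 5 were lower. The acetylcholine receptor of the nerve contact has subunits that change between the developing and the adult synapse. Chrng, the fetal gamma subunit, had 1, 0 and 0 reads in Con and 4, 8 and 11 reads in EX libraries, a ratio of 22.2 (95% exact interval 3.60 to 914, counting error only, adjusted p = 0.0017 in edgeR's test). This rests on few reads, and without Con replicate 1 no Con read was left and the fitted log2 fold change was 5.96 (4.04 with all libraries). Chrne, the adult epsilon subunit, had a log2 fold change of -0.08 (adjusted p = 0.58), and Chrnb1, the beta subunit, had -0.06 (adjusted p = 0.57). Chrnd, the delta subunit, had 49, 60 and 64 reads in Con and 35, 34 and 41 reads in EX libraries, and fell by 0.70 on the log2 scale (adjusted p = 0.0035, but 0.0686 with DESeq2). Chrna1, the alpha subunit whose promoter is shown above, rose from 16.3 ± 0.308 to 19.1 ± 1.29 CPM (SD, n = 3), by 0.23 (adjusted p = 0.045), and lost the call when any 1 library was left out, with adjusted p from 0.0561 to 0.243.

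Musk, the receptor kinase that gathers acetylcholine receptors, rose from 40.0 ± 2.81 to 53.6 ± 3.72 CPM (SD, n = 3), which is 0.42 in log2 terms (adjusted p = 3.9e-07 in edgeR's test). Dach2, a repressor of Myog known from innervated muscle, had 45, 57 and 83 reads in Con and 32, 26 and 35 reads in EX libraries. All EX libraries lay below all Con libraries, and Dach2 fell by 1.04 on the log2 scale (SE 0.193, adjusted p = 8.8e-05). It did not pass in limma, at -0.56 on log2(FPKM + 0.1), -0.22 on log2(FPKM + 1) and -0.62 on TPM, with adjusted p of 0.124, 0.104 and 0.0928. Hdac9, a deacetylase that acts on the same axis, fell by 0.35 (adjusted p = 0.013). Hdac9 did not pass without Con replicate 2, Con replicate 3, EX replicate 1 or EX replicate 3, with adjusted p from 0.0516 to 0.115. Hdac4, its relative that is raised in denervated muscle, had a log2 fold change of 0.08 (adjusted p = 0.37), and Runx1, another gene raised after denervation, had 0.24 (adjusted p = 0.51). Gadd45a, a stress gene, rose by 0.27 (adjusted p = 0.0025), but had 0.18 with limma on TPM (adjusted p = 0.0583). The ubiquitin ligases of muscle wasting both fell, Trim63 from 477.4 ± 15.6 to 388.2 ± 17.7 CPM (log2 fold change -0.30, adjusted p = 5.3e-08) and Fbxo32 by 0.18 (adjusted p = 0.00014).

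In the desmin network, 2 of 13 genes were higher and 1 was lower, compared with 6.08% and 5.96% of all genes tested. Cryab, the chaperone alpha B crystallin that binds desmin, rose from 363.5 ± 23.3 to 449.6 ± 19.3 CPM (log2 fold change 0.31, adjusted p = 1.1e-07 in edgeR's test). Lmna, lamin A/C of the nuclear envelope, rose by 0.20 (adjusted p = 0.0046) and did not pass without Con replicate 2 (0.18, adjusted p = 0.0521). Plec, the linker protein plectin, fell by 0.11 (adjusted p = 0.026) and did not pass without Con replicate 2, Con replicate 3, EX replicate 1 or EX replicate 3, with adjusted p from 0.0554 to 0.217. Of 18 cell cycle genes, only Mki67, a marker of dividing cells, passed. It had 11, 5 and 7 reads in Con and 24, 23 and 20 reads in EX libraries, with a log2 fold change of 1.47 (adjusted p = 0.0014). The call was lost in limma, at 0.69 and 0.13 on FPKM with pseudocounts of 0.1 and 1 and at 0.83 on TPM, with adjusted p of 0.0632, 0.0529 and 0.0613. Log2 fold changes were above 0 for 16 of the 18, with a median of 0.31, against 8256 of the 16716 genes tested. Several of the 18, such as Cdk1 with 1 to 10 reads per library, had few reads, and 1 call of 18 is near the 6.08% of all genes.

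**Figure D5:**
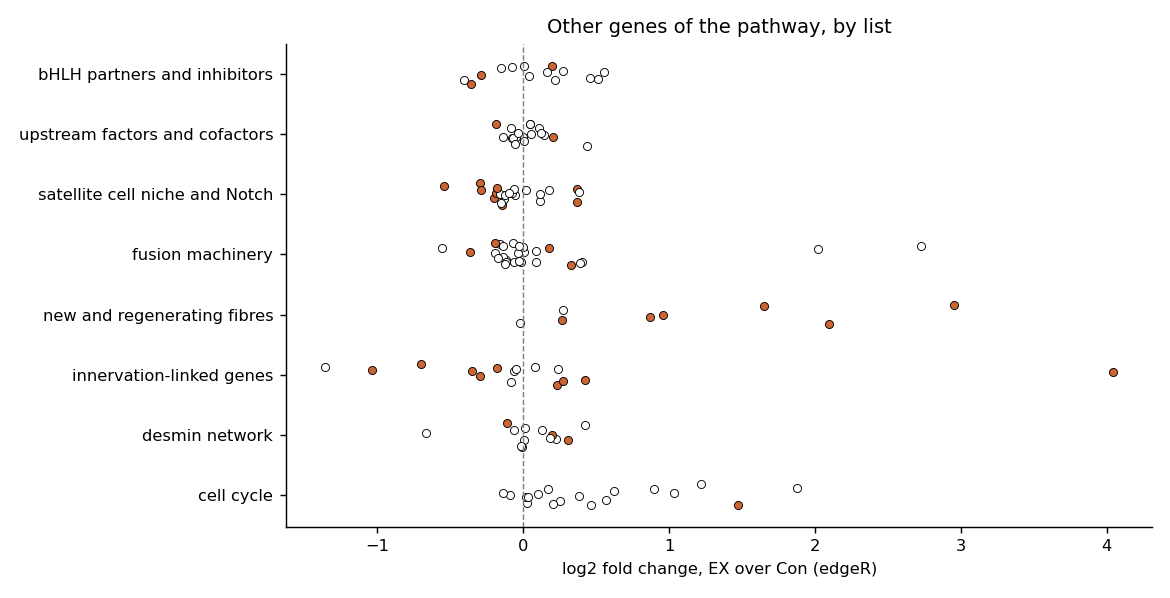
Log2 fold change of EX against Con for each gene of the 8 pathway lists (x axis, vertical position within a list is arbitrary). Orange dots passed the threshold, and 6 of the 8 genes of new and regenerating fibres did so, all with higher values in EX muscle. The lists were chosen with earlier results of these data known.

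Markers of other cells moved with the groups beside the genes above. Of 10 macrophage markers, 6 were higher and none was lower, with a median log2 fold change of 0.76 and a summed level of 45.5 to 49.8 CPM in Con and 81.2 to 87.5 CPM in EX libraries. Macrophages can divide, and their part in the Mki67 value was not tested. Of 10 tendon markers, 5 were higher (374.1 to 383.1 CPM summed in Con, 537.0 to 566.3 in EX), and of 10 markers of fibroblasts and fibroadipogenic progenitors, 2 were higher (1505 to 1569 and 1750 to 1755 CPM). Of 10 adipocyte markers, 7 were higher and 1 was lower, while their sum was 1115 to 1171 CPM in Con and 1121 to 1123 CPM in EX libraries. Of 9 lymphocyte markers in the table, none passed and Cd79a alone had an unadjusted p under 0.05 in edgeR's test, at sums of 0.689 to 1.49 CPM in Con and 0.443 to 0.571 CPM in EX libraries, and Nkg7 and Ncr1 were at 0 in all Con libraries. Of 10 fibre markers, 3 were higher and 3 were lower (153180 to 159070 and 163500 to 171120 CPM). Myh7, the myosin heavy chain of slow fibres, was near absent at 0.925, 0.887 and 1.19 CPM in Con and reached 99.1, 110.2 and 96.3 CPM in EX replicates, which is 6.65 in log2 terms (adjusted p = 8.0e-41 in edgeR's test). Its counts, rounded, were 13, 14 and 19 in Con and 1577, 1737 and 1522 in EX libraries, so this marker moved with the groups together with Myog, Myod1, Mymk and 6 of the 8 genes of new and regenerating fibres. The paper says only that hind leg muscles were taken. Which muscle or part was sampled therefore cannot be told apart from training, and this was not tested. Myh2, the myosin of fast oxidative fibres, fell from 751.7 ± 10.6 to 448.3 ± 8.69 CPM, by 0.75 on the log2 scale (adjusted p = 6.7e-22). Of the other fibre markers past the threshold, Pvalb rose by 0.35 (adjusted p = 5.4e-11 in edgeR's test) and Acta1 by 0.22 (2.0e-08). Mb fell by 0.14 (adjusted p = 0.0019) and Myh1 by 0.09 (0.047). The deposited counts of Myh7, Myh2 and Myh1 are partly not whole, as for Myh8, and how reads were shared among myosin genes is uncertain. No marker of these lists was at 0 in all 6 libraries, and the part of these cells in the values of the 10 genes was not tested.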

How the data were processed

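RNA was sequenced from hind leg muscle of 3 Con and 3 EX mice, all 6 libraries being used here. The authors sequenced paired-end reads of 150 bp on the DNBseq platform, filtered them and, per the paper's methods, aligned them to GRCm39 with HISAT. The submitters' processing notes list GRCm38.p6, cutadapt, featureCounts and MultiQC, so the build and the counting tool are uncertain, and positions are given for the RefSeq promoters only. Whether reads were counted by strand is not given in the sources used here. The authors deposited estimated counts, FPKM values and TPM values per gene and library, and their columns of group means were not used. Between 4.18% and 4.44% of the counts in a library were not whole, while those of the 10 genes were.

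Counts were rounded and tested without an expression filter with edgeR 4.0.16 (glmQLFit, glmQLFTest, TMM) in R 4.3.3, over 16716 of 16759 genes. The threshold was an adjusted p under 0.05 with no fold limit. Intervals are at the 95% level. Ratios of FPKM within a library were compared by exact permutation tests in SciPy 1.17.1, on replicates that are separate mice. The alternatives were filters (filterByExpr, or a mean of at least 1 FPKM), RLE size factors, totals without the 20 most abundant genes, DESeq2 1.42.0, limma 3.58.1 on log2 values of FPKM (pseudocounts 0.1 and 1) or TPM (0.1), a replicate block, and each library left out in turn. Fits were checked on simulated counts with 200 changed genes. Within each group, no library was a copy of another, and each library counted as 1 sample. The labels give no batch.

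The 10 genes, the 8 pathway lists and the 9 marker lists were chosen with earlier results of these data known. The genes named are the 10, up to 3 of the largest increases and decreases of a list past the threshold, direct partners, and the genes behind a number of calls in 1 list and direction of 5 or fewer. Myl4, Tnnt2, Cdkn1c and the list genes named with no call lie outside this rule and were chosen after their values were seen. Other list genes enter only through the counts and medians of their lists. Kirrel1 is listed as Kirrel, and Nphs1 and Trbc2 were not matched. Items withheld for evaluation are not reported here.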

Additional observations from a re-analysis of the deposited data

How the results depend on the processing

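Over 15 alternatives, Myog kept its call with log2 fold changes of 0.78 to 1.06 and Myod1 with 0.35 to 0.49. Mymk kept it in the 14 that could be fitted, with log2 fold changes of 1.13 to 5.13. Of the 10 genes, 4 were called higher in the count-based fits, except for 3 with a filter at a mean of 1 FPKM, which leaves Mymk out, and 3 in each limma fit, which lost Myf6. None was called lower in any fit. For all genes, 2013 calls became 1174 with DESeq2, 1143 with limma on log2(FPKM + 0.1) and 1123 with a pseudocount of 1, and 1125 to 1757 with 1 library left out. Higher genes (1016) were 628, 365 and 364 in these fits, 318 with limma on TPM, and 613 to 912 with 1 library left out. Lower genes (997) were 546 with DESeq2, 1252 with totals without the 20 most abundant genes, 1203 with limma on TPM and 497 to 845 with 1 library left out. The share of higher genes among calls, 50.5%, became 38.9% with totals without the 20 most abundant genes, 31.9% and 32.4% with limma on FPKM and 20.9% on TPM. Of the list genes, 19 higher became 12, 10 and 10 in the limma fits (FPKM + 0.1, FPKM + 1, TPM) and 14 to 16 with 1 library left out, and 18 lower became 12 with DESeq2 and 8 to 15 with 1 library left out. The count was 8 without EX replicate 1 and 11 without EX replicate 3. Des, at 0.03, turned to -0.0258 and -0.0257 with limma on FPKM and to -0.0612 on TPM, and ranged from -0.0044 to 0.0735 with 1 library left out. Myf5 ranged from -0.107 to 0.174. The causes were not tested. Chrng had no adjusted p in DESeq2. Besides the losses given with each gene, DESeq2 did not call Dll1, Cxcr4, Hdac9, Id1, Cav3 or Chrna1, and at least 1 limma fit did not call Dll1, Cxcr4, Ep300, Kirrel, Lmna, Id1, Cav3 or Chrna1. Totals without the 20 most abundant genes also lost Id1, Cav3 and Chrna1 (adjusted p of 0.0824, 0.0854 and 0.0825).

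Same-numbered Con and EX libraries had correlations of -0.0841, -0.0519 and -0.0727 between their deviations from the group means. For libraries of different number these were 0.00527 to 0.0674. Deviations from a mean cancel within a group, so these values cannot decide whether the numbers pair the mice. With a replicate block, 1856 genes were called, 929 higher and 927 lower, with 4 of the 10 genes higher, and 16 list genes higher and 18 lower. Id1, Cav3 and Chrna1 lost their call with the block (adjusted p of 0.0612, 0.0598 and 0.0585). Depth limits Mymk, Mymx, Chrng, Megf10 and Myf5, with under 60 reads in each library.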
